A study of Oryza sativa with 6 samples.

Results

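In rice roots, 68 of 37938 loci stood apart in L-type lateral roots: their level there lay at least 2-fold above, or at least 2-fold below, the levels in both nodal and S-type lateral roots, under control and under salt alike. They were chosen from the deposited normalised read counts, with 1 added to each, among the 12133 loci whose mean over the 6 libraries was 50 or more. Of the 68, 34 were above both other root types and 34 were below both. The root type differences of these loci are therefore a description and carry no test.

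All 6 libraries came from roots of IR29, an indica rice cultivar that the series calls sensitive to salinity, and each group was 1 library: nodal, S-type lateral and L-type lateral roots under control, and the same 3 root types after 7 days with 50 mM NaCl. How many plants went into a library is not stated in the labels. With no replicate libraries, the values below carry no error between plants, and a comparison of 2 libraries describes those libraries. The strand-specific mRNA libraries held between 3839177 and 4249872 reads on loci.

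Nodal roots are the shoot-borne axes of the rice root system. Short S-type laterals are thin, stop growing early and do not branch, while L-type laterals are longer and thicker, keep growing and carry laterals of their own. The gene IDs are paired with no names in the files or the reference table used here, so no locus is given a function, and loci are named by ID only.

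L-type roots had far fewer loci of this kind than the other root types. By the same rule applied to each root type, 1191 loci (534 above and 657 below) were outside the other 2 root types in nodal roots and 1496 (1006 above and 490 below) in S-type roots, against 68 in L-type roots. Loci above both others under both treatments were 0.28% of the 12133 loci, and loci below both others were also 0.28%. Since these shares are what the rule counts, nothing is read from them beyond their size.

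Most L-type loci outside the range under 1 treatment were not outside it under the other. Under control, 250 of the 12133 loci were above and 831 below in L-type roots, and under salt 125 were above and 88 below. Both directions together, these were 8.91% of the 12133 loci under control and 1.76% under salt. The 34 loci above both others under both treatments were thus 13.6% of those above under control and 27.2% of those above under salt. The 34 loci below were 4.09% of those below under control and 38.6% of those below under salt. The last 2 shares differ only because the same 34 loci are set against 831 and 88. No locus was above under control and below under salt, while 7 loci were below under control and above under salt. The first count comes from sets of 250 and 88 loci and the second from sets of 831 and 125. With sets of such unequal size, nothing is read from the difference between these 2 counts.

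**Figure D1:**
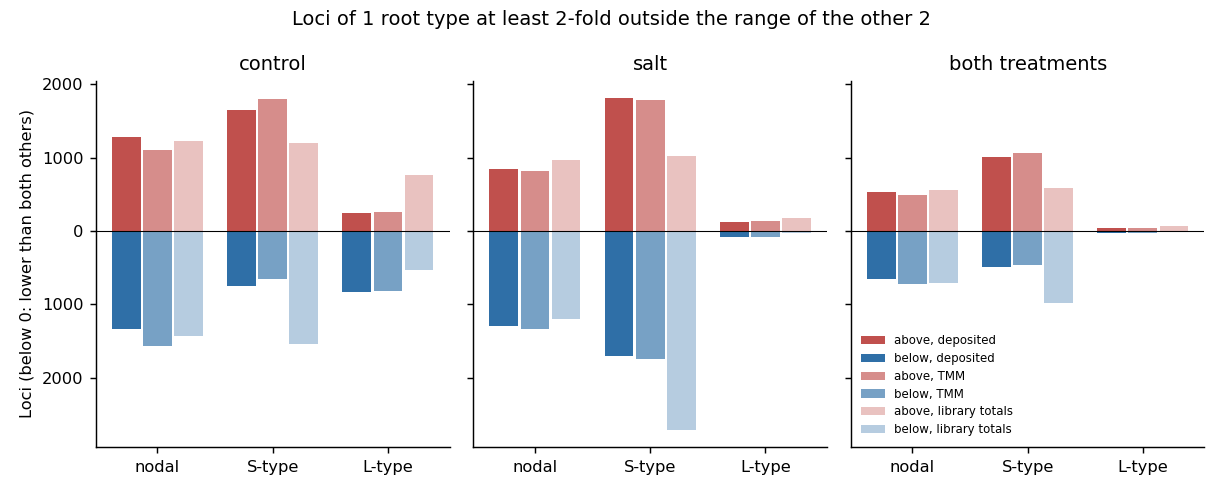
Number of loci in which 1 root type lies at least 2-fold above (red, upward) or below (blue, downward) both other root types, under control, under salt and under both. Shades give the scaling of the libraries: deposited, TMM or library totals. Under both treatments L-type roots have 34 loci each way on the deposited scale, against 534 and 657 in nodal and 1006 and 490 in S-type roots. Library totals give 61 above and 12 below in L-type roots.

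The scaling of libraries set how the L-type loci divided between the directions. With TMM factors, which align the bulk of loci between libraries, 36 loci were above and 29 below, and 32 and 29 of these were among the 34 and 34. With libraries scaled to equal totals, 61 were above and 12 below. Those 61 included all 34 loci above on the deposited scale, and the 12 were all among the 34 below. The authors' FPKM values, which are scaled for transcript length and library depth, gave 39 above and 30 below, of which 29 and 28 were members. By the deposited, TMM, library total and FPKM scales together, 28 of the 34 loci above and 11 of the 34 below kept their place.

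The 34 loci above both other root types were mostly of low abundance. Their mean level ran from 50.8 to 869 with a median of 78.6 normalised reads, against a median of 163 over the 12133 loci, and 25 of the 34 had a mean under 100. In the L-type libraries they ran from 62.1 to 3550 (median 147) under control and from 45.6 to 1502 (median 178) under salt. Their control and salt medians were 37.5 and 54.0 for nodal roots and 34.8 and 25.9 for S-type roots. Summed over the 34 loci, L-type roots held 10648 normalised reads under control and 8837 under salt. The same sums were 2128 and 2428 for nodal roots, beside 2762 and 2141 for S-type roots.

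The 34 loci below both other root types were more abundant. Their mean level ran from 50.8 to 2824 with a median of 112, and 12 of the 34 had a mean of at least 200, against 5 of the 34 loci above. In the L-type libraries they ran from 0 to 1265 (median 34.1) under control and from 7.30 to 655 (median 44.7) under salt. Nodal medians were 187 and 170.1, and S-type medians 165 and 166. Their summed control and salt levels were 4097 and 3488 for L-type, 21279 and 9758 for nodal, and 14844 and 10641 for S-type roots.

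**Figure D2:**
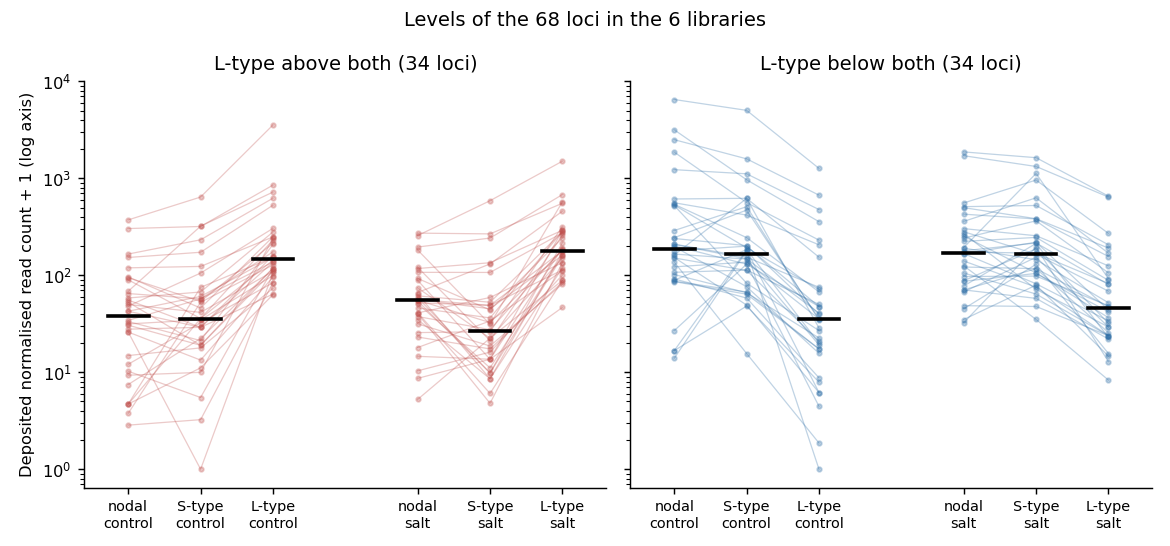
Deposited normalised read counts plus 1 (log axis) of the 34 loci above (left) and the 34 loci below (right) both other root types, 1 line per locus within each treatment and black bars for the medians. The median of the loci above is 147 in control L-type roots against 37.5 in nodal and 34.8 in S-type roots, and that of the loci below is 34.1 against 187 and 165.

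Most loci lay close to the 2-fold limit. The fold to the nearer of the other root types, taken as the smaller of its values under control and salt, had a median of 2.64 for loci above and 2.40 for loci below, and 12 loci above and 4 below reached 3-fold. At 4-fold, 1 locus was left in each direction. Both were singled out after their values were seen. Os07g0484800 (chromosome 7, 17787785 to 17801301, build IRGSP-1.0) had 142 normalised reads in control and 99.5 in salt L-type roots. Its control and salt levels were 34.8 and 15.1 for S-type and 3.70 and 9.35 for nodal roots. Os09g0330000 (chromosome 9, 9825476 to 9832295) had control and salt levels of 136 and 124 for nodal, 14.6 and 34.1 for S-type, and 0.86 (1 read) and 7.30 for L-type roots.

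At the limit itself, small differences in level decided which loci were included. The nearest loci inside it had folds of 2.013, 2.014 and 2.03 above and of 2.002, 2.003 and 2.01 below. The nearest loci outside had folds of 1.99, 1.96 and 1.93 above and of 1.97, 1.96 and 1.95 below. A further 71 loci above and 99 below had a fold from 1.5 to 2. The lowest mean among the members was 50.8. A total of 289 loci (180 above and 109 below) met the fold with a mean under 50.

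The reads behind a ratio differed widely between loci. Os02g0755600, one of the loci below, had 8 reads in the control L-type library against 17 in the control nodal library. Its ratio was 2.28, with a 95% exact conditional (Clopper-Pearson) interval of 0.93 to 6.10, which covers counting error only. Such intervals for the ratio to the nearer root type left out 1 under both treatments at 34 of the 34 loci above and 33 of the 34 below. Since the same reads chose the loci, this describes their depth and is no test of the root type differences.

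Folds were larger under control than under salt in 28 of the 34 loci below and in 18 of the 34 loci above. For loci below, the median fold was 3.71 under control and 2.44 under salt, and the highest was 4.22 under salt. Under control the highest, 13.95, was set by the added 1, as it came from Os11g0149900, which had 0 reads in the control L-type library. Against the floor of 3 reads it was at least 5.0-fold lower there than in nodal roots, the nearer root type, and at least 68.6-fold lower than in S-type roots. For loci above, the medians were 2.88 and 3.21, with highest values of 25.8 under control and 13.1 under salt.

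**Figure D3:**
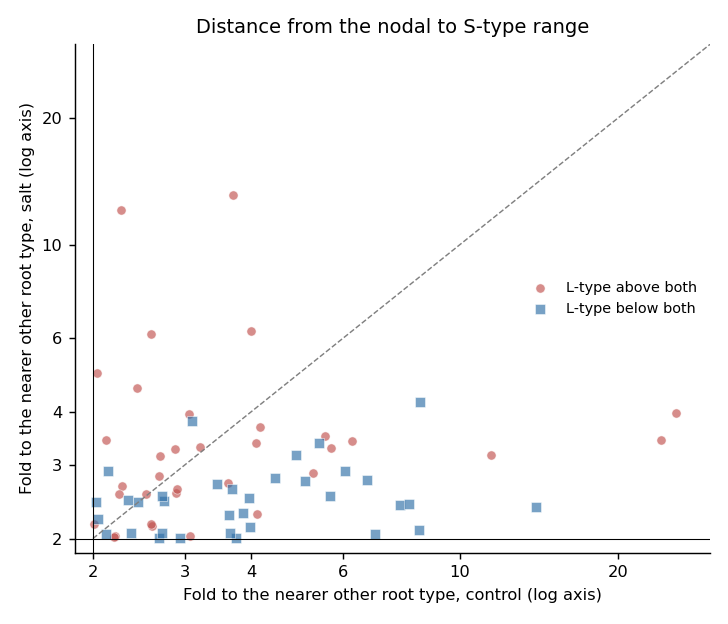
Fold between L-type roots and the nearer of the other root types for each of the 68 loci, under control (horizontal, log axis) and salt (vertical, log axis), from values plus 1; black lines mark the limit of 2 and the dashed line equal folds. Of the 34 loci below (squares), 28 lie under the dashed line, and of the 34 loci above (circles) 18 do.

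Nodal and S-type roots differed from each other by less than 2-fold in 22 of the 34 loci above under control (64.7%, beside 56.9% of the 12133 loci) and in 20 under salt (58.8%, beside 56.5%). Of the 34 loci below, 20 did so under control (58.8%) and 23 under salt (67.6%). Among the loci above, nodal exceeded S-type roots in 13 of 34 under control and in 24 of 34 under salt. The share of the 12133 loci was not counted for single treatments, so this difference is not read as a trait of the members. Nodal exceeded S-type under both treatments in 11 loci above and 12 below, and S-type exceeded nodal under both in 8 and 7. As a share, nodal exceeded S-type under both treatments in 32.4% of loci above and 35.3% of loci below, beside 36.3% of the 12133 loci.

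The most abundant locus above both others, and the one with the largest fold among loci with a mean of at least 100, was Os07g0431160 (chromosome 7, 14106591 to 14201825). Its nodal, S-type and L-type levels were 372, 640.2 and 3550.2 normalised reads under control, and 65.5, 130.001 and 457 under salt. L-type roots were thus highest within each treatment, but the salt L-type library was below the control S-type library. The ratio to S-type roots was 5.55 under control (95% counting interval 5.08 to 6.06) and 3.52 under salt (2.84 to 4.39). Per transcript length it was at 5205 FPKM in control L-type roots, the highest FPKM of the loci above. This locus alone held 3550.2 of the 10648 normalised reads summed over the 34 loci above in control L-type roots; without it the sums were 7098 under control and 8379 under salt.

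The second locus above by that order was Os02g0744650 (chromosome 2, 31227801 to 31232556). In the same order of root types it had 165, 231 and 623 normalised reads under control, and 181, 30.3 and 572 under salt. Both L-type libraries stood above the 4 others, and the low value was that of salt S-type roots. The ratio to the nearer root type was 2.69 under control (95% counting interval 2.30 to 3.16) and 3.16 under salt (2.697 to 3.70).

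Among loci below both others with a mean of at least 100, Os01g0371500 (chromosome 1, 15289213 to 15294409) had the largest fold. Its nodal, S-type and L-type levels were 523, 82.0 and 25.9 normalised reads under control, and 166, 218 and 42.9 under salt. Both L-type libraries were below the 4 others, while the order of nodal and S-type roots differed between treatments. The ratio of the nearer root type to L-type roots was 3.17 under control (95% counting interval 2.04 to 5.02) and 3.86 under salt (2.80 to 5.43).

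Os09g0538450 (chromosome 9, 21189512 to 21197328) came next, with nodal, S-type and L-type levels of 87.9, 183 and 19.0 normalised reads under control, and 189.6, 144 and 51.1 under salt. Both L-type libraries were again below the 4 others. The ratio of the nearer root type to L-type roots was 4.63 under control (95% counting interval 2.89 to 7.73) and 2.81 under salt (2.03 to 3.95). The most abundant locus below, singled out after its values were seen, was Os02g0601300 (chromosome 2, 23527138 to 23530502), with 6496, 5022 and 1265 normalised reads in that order under control and 1871, 1632 and 655 under salt. Its 2 L-type libraries were the lowest of the 6.

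**Figure D4:**
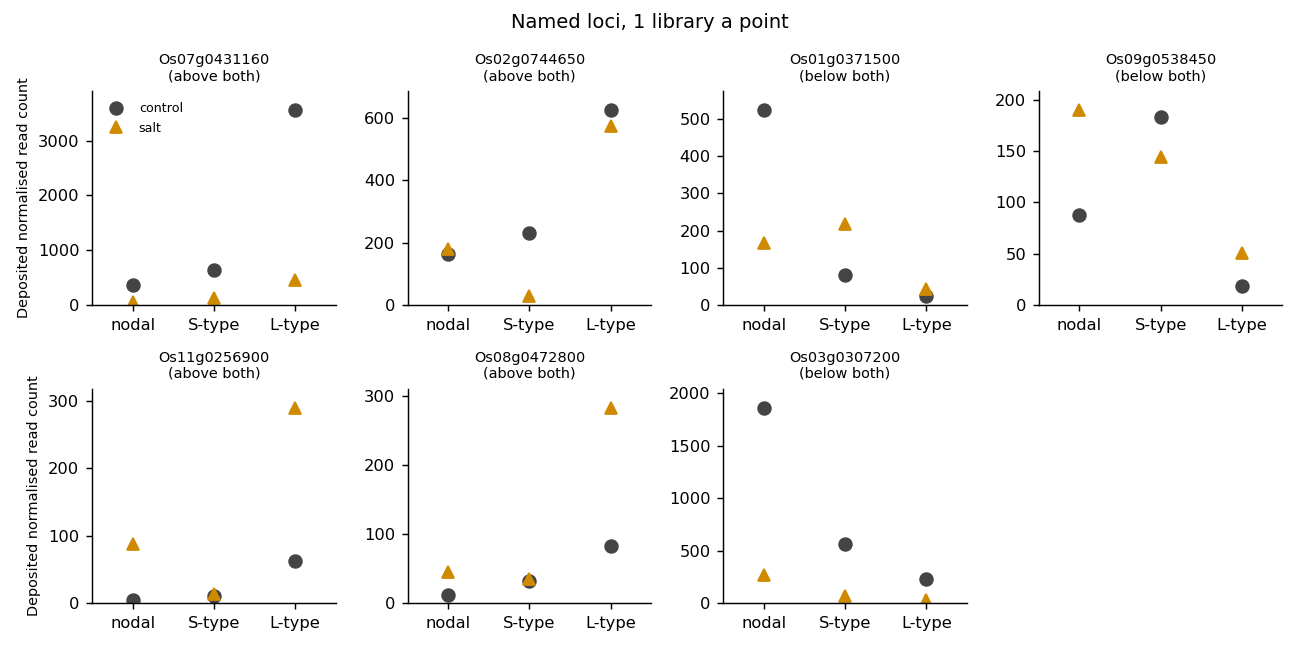
Deposited normalised read counts of 7 loci named by rule, 1 panel a locus, with 1 library a point (grey circles control, orange triangles salt) and axes from 0. Os07g0431160 is at 3550 in control L-type roots, and Os03g0307200 is at 1860.2 in control nodal roots and at 28.3 in salt L-type roots.

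The authors' own tests between root types use the same contrasts as the rule, and they marked few loci of any kind. In the authors' deposited table, 1 of the 34 loci above and 1 of the 34 below had a q-value under 0.05 between control L-type and control S-type roots. In all, 34 of 18177 tested loci had one there. These were Os06g0712600 (15.1 against 0 FPKM) and Os11g0149900 (0 against 31.5 FPKM), each with 0 reads in 1 of the 2 libraries and a q of 0.0144. That table gave 0 of the members tested between L-type and nodal roots under control or salt, and 0 between L-type and S-type roots under salt. Over all tested loci these comparisons gave 30 of 18384, 12 of 18997 and 59 of 18561. With shares this small, 0 calls say nothing about the members.

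Salt against control was not part of the rule, and here the 68 loci did not move one way. Higher or lower under salt means here that a locus differed at least 2-fold on the scale of log2(value + 1), had 50 or more normalised reads in the higher library, and had a counting interval of the ratio without 1. In L-type roots, 8 of the 34 loci above were higher under salt (23.5%, beside 14.3% of the 12133 loci) and 4 were lower (11.8%, beside 10.9%). Of the 34 loci below, 7 were higher (20.6%) and 2 lower (5.88%). Because every locus was chosen on its level in all 6 libraries, and the salt change of L-type roots less that of another root type is the difference of the 2 folds the rule used, root types are set side by side here without a test.

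In nodal roots, 9 of the 34 loci above were higher under salt (26.5%, beside 9.34% of all) and 4 lower (11.8%, beside 12.4%), and 3 of the 34 loci below were higher (8.82%) and 9 lower (26.5%). In S-type roots, 1 of the loci above was higher (2.94%, beside 3.94% of all) and 7 lower (20.6%, beside 10.4%), and 5 of the loci below were higher (14.7%) and 7 lower (20.6%). The median log2 salt changes of the loci above, for nodal, S-type and L-type roots, were 0.48, -0.04 and 0.26, beside -0.15, 0.00 and -0.09 over the 12133 loci. Those of the loci below were -0.38, -0.06 and 0.47.

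**Figure D5:**
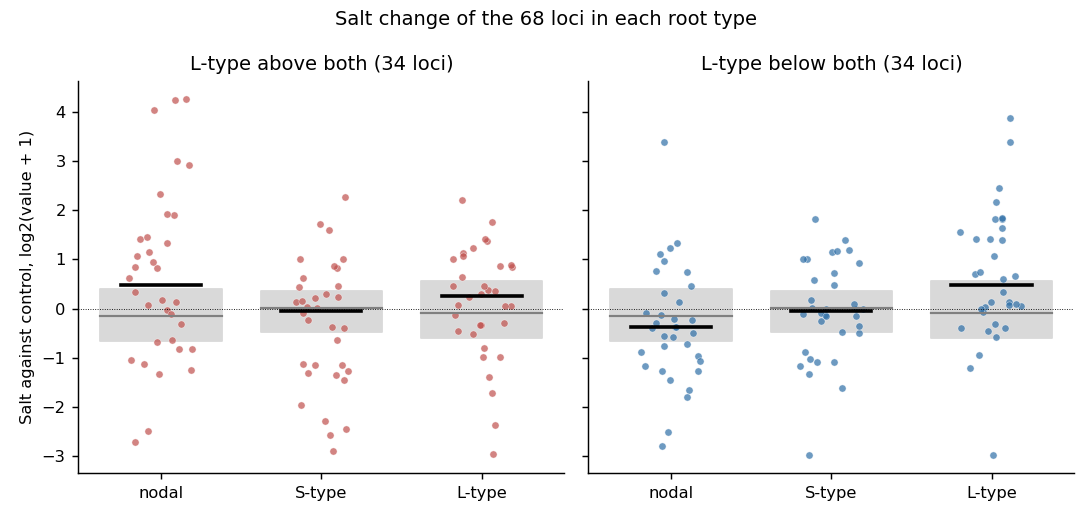
Log2 change of salt against control (values plus 1) for the 34 loci above (left) and the 34 below (right) in each root type, 1 point a locus with a black bar for their median; grey boxes and lines give the quartiles and median of the 12133 loci. In L-type roots the medians are 0.26 and 0.47, and single loci run from -2.95 to 2.202 and from -2.98 to 3.88.

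By sign alone, 12 of the 34 loci above had a salt change over 0 in all 3 root types (35.3%, beside 16.2% of the 12133 loci), and 7 had one below 0 in all (20.6%, beside 23.1%). Among the loci below, 4 were over 0 in all root types (11.8%) and 9 below 0 in all (26.5%). For single root types, the salt change of the loci below was over 0 in 24 of 34 for L-type (70.6%, beside 45.4% of the 12133 loci), 10 for nodal (29.4%, beside 42.5%) and 14 for S-type roots (41.2%, beside 50.3%). For the loci above these counts were 21 of 34 for L-type, 21 for nodal and 17 for S-type roots.

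Among the members, Os11g0256900 and Os08g0472800 had the largest salt differences upward in L-type roots with at least 200 normalised reads in the higher library. Os11g0256900 (chromosome 11, 8466831 to 8517626), one of the loci above, had nodal, S-type and L-type levels of 3.70, 10.1 and 62.1 under control, and 87.6, 12.6 and 289 under salt. It was 4.66-fold higher under salt in L-type roots (95% counting interval 3.60 to 6.10) and higher by 4.24 on the log2 scale in nodal roots, while S-type roots differed by 0.29. Os08g0472800 (chromosome 8, 23288612 to 23294162), also a locus above, had 11.1, 31.5 and 82.8 under control and 45.1, 35.3 and 282 under salt, 3.41-fold higher in L-type roots (2.701 to 4.33).

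A higher level under salt in both nodal and L-type roots and not in S-type roots, by the rule of size, was met by 5 of the 34 loci above (14.7%) and 1 of the 34 below (2.94%), beside 4.09% of the 12133 loci. The photosynthesis list, 16 IDs set down as markers of shoot tissue, had sums that differed in the same way. All 5 of its loci with a mean of at least 50 were higher under salt in nodal and in L-type roots and 0 in S-type roots. These loci reached that mean through their salt nodal and salt L-type levels, so this count follows largely from the filter. By sign alone and whatever the mean, every listed locus but Os12g0292400 had a salt change over 0 in both nodal and L-type roots. Os12g0292400, singled out after its values were seen, differed on the log2 scale by 0.49 in nodal and -0.06 in L-type roots. In S-type roots the listed loci went both ways. The summed nodal, S-type and L-type levels of the list were 118, 52.8 and 178 under control, and 3356, 68.2 and 1380.4 under salt. The list had 4 of 16 loci at 0 in salt S-type roots and none at 0 in the salt nodal and salt L-type libraries. Its part in the salt differences of the loci above was not tested; no locus of that list was itself a member.

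The largest salt differences downward in L-type roots were at Os03g0307200 and Os07g0431160. Os03g0307200 (chromosome 3, 10926386 to 10928005), a locus below both others, had nodal, S-type and L-type levels of 1860.2, 562 and 229 normalised reads under control, and 268, 70.7 and 28.3 under salt. Each salt library was below its control library, and salt L-type roots were lowest of the 6. It was 8.11-fold lower under salt in L-type roots (95% counting interval 5.58 to 12.2), and the log2 changes in nodal, S-type and L-type roots were -2.79, -2.97 and -2.98. Os07g0431160, described above, was 7.76-fold lower in L-type roots (7.07 to 8.53), with log2 changes of -2.49, -2.29 and -2.95.

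A fit of salt against control with root type as a term, over all 6 libraries, asked which changes repeated across root types. No locus of 19469 passed an adjusted p of 0.05 (limma with Benjamini-Hochberg adjustment, 0.0% called; 2582 loci at an unadjusted p under 0.05), and edgeR's quasi-likelihood test also called 0 (2126 loci at an unadjusted p under 0.05). At an unadjusted p under 0.05 the loci above had 7 of 34 higher (20.6%, beside 6.13% of the loci of mean 50 or more) and 4 lower (11.8%, beside 9.28%), and the loci below had 1 higher (2.94%) and 3 lower (8.82%). The 2 residual degrees of freedom of this fit come from how unevenly salt acted over the root types, not from replicate plants. The rule chose the members on root type differences in these same 6 libraries, and that choice bears on this spread. Shares of members called in this and the alternative fits are therefore a description and cannot be weighed against those of all loci.

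The 2 loci with the largest differences downward had fitted changes in the same direction. For Os03g0307200 the fitted log2 change was -2.91 ± 0.24 (SE, limma adjusted p = 0.220), and for Os07g0431160 it was -2.58 ± 0.26 (SE, limma adjusted p = 0.220), lower in 3 of 3 root types each. The DESeq2 Wald test, which called 1.03% of 17581 loci higher and 1.14% lower, called 2 of the 34 loci above and 4 of the 34 below. These were Os07g0431160 (adjusted p = 4.48e-09) and Os09g0439200 above, and Os03g0307200 (adjusted p = 1.13e-11), Os02g0601300, Os03g0248600 and Os02g0755600 below, all lower under salt but Os02g0755600; they were named after their calls were seen. Over all the alternatives the adjusted p of Os03g0307200 and Os07g0431160 ran up to 0.826. Without the control or the salt S-type library, the root type term fits the remaining S-type library exactly. Both limma fits then rest on the same nodal and L-type pairs and are not 2 checks. Their log2 changes were -2.72 for Os07g0431160, -2.88 for Os03g0307200 and 3.38 for Os02g0755600. In the authors' deposited table, 0 of the members tested there had a q-value under 0.05 for salt in L-type, nodal or S-type roots. Over all tested loci, 9 of 18408, 9 of 18830 and 23 of 17633 had one.

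The IDs set down in gene lists from general knowledge, 127 in 15 lists, held 2 of these loci, too few for a reading of their share. The lists cover tissue markers and root functions. Among their 64 loci of mean 50 or more, 0 were above both others and 2 below (3.125%, beside 0.56% of the 12133 loci). One was Os03g0307200, in the list for iron uptake and phytosiderophores, the metal chelators that grasses release to take up iron. The other was Os02g0629200 (chromosome 2, 25162875 to 25166544), in the aquaporin list of water channels. Its nodal, S-type and L-type levels were 2502, 1587 and 669 normalised reads under control, and 1709.9, 1324 and 640.0 under salt, so that both L-type libraries stood below the 4 others.

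In the iron list, 3 of 5 loci of mean 50 or more were lower in L-type than in both other root types under both treatments, whatever the fold, beside 9.59% of the 12133 loci. The others did not follow under control. There Os02g0306401 was highest in L-type roots (2371, against 1373 for nodal and 1580 for S-type). Os01g0952800 lay between (370, against 265 for nodal and 484 for S-type). Both were named after their values were seen. At 2-fold, 3 of the 5 were below both others under control and 1 under salt, beside 831 and 88 of the 12133 loci. The rule of size counted 5 of 5 lower under salt in nodal roots (12.4% of the 12133 loci), 5 of 5 in S-type roots (10.4% of all) and 4 of 5 in L-type roots (10.9% of all), where 1 was higher (14.3% of all). In the aquaporin list 3 of 12 loci were lower in L-type roots than in both others under both treatments, beside the same 9.59%. At 2-fold, 2 of the 12 were below both others under control and 2 under salt, beside the same 831 and 88 of the 12133 loci. By the rule of size, 4 of its 12 loci were lower under salt for nodal (12.4% of all), 10 for S-type (10.4%) and 4 for L-type roots (10.9%), and 1 was higher for L-type roots (14.3%).

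The other 13 lists had 0 members among 47 loci with a mean of at least 50: photosynthesis, secondary wall, root ground tissue and stele, root hair, cell division, lateral and crown root formation, nitrogen transport, phosphate, jasmonate, abscisic acid, diterpenoid, PR protein and low oxygen lists. The diterpenoid and PR protein lists had 0 loci of that mean, so they could hold no member. At these low levels, the diterpenoid list summed to 57.8 in control L-type roots, against 5.55 for nodal and 5.62 for S-type roots. Of the 57.8, 32.8 came from Os04g0178400, singled out after its values were seen. Under salt the sums were 24.7 for L-type, 3.40 for nodal and 5.05 for S-type roots. The PR protein list summed to 110 for L-type, 56.4 for nodal and 117 for S-type roots under control. Its salt sums were 148, 82.5 and 53.0 in that order. As a check of the labelled tissue, the root ground tissue and stele list summed to between 6954 and 31128 in every library, but its loci did not go one way. In salt S-type roots 17737 and 13058 of the 31128 came from Os03g0107300 and Os02g0745100, while Os02g0662000 was at 1.26 there, against 5378 in salt nodal and 1747 in salt L-type roots. These loci were named after their values were seen. Secondary wall loci summed to 4790 and 3681 in the control and salt nodal libraries, against 202 and 156 for L-type and 109 and 7.57 for S-type roots. Cell division loci summed to 2091 and 1494 for nodal, 1262 and 641 for L-type, and 782 and 143 for S-type roots. By these sums L-type roots lay between the other root types for both lists, and so did most single loci. L-type roots were lowest under control at Os10g0467800 of the secondary wall list (31.1, against 44.9 for S-type). In the cell division list they were lowest at Os01g0805600 under control (163, against 194 for S-type) and at Os02g0123100 under salt (16.4, against 17.7). These 3 loci were also named after their values were seen. In these bulk samples, fewer cells of a type and less RNA per cell cannot be told apart.

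The members were spread over the genome. Every chromosome held between 2 and 10 of the 68, and their share of the loci of mean 50 or more ran from 0.19% on chromosome 5 to 1.52% on chromosome 11, where 6 loci were above and 2 below. On chromosome 12, 0 were above and 2 below. Only 2 pairs of members lay within 100000 bases of each other on the deposited coordinates, and both members of each pair had the same direction.

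On chromosome 1, Os01g0591000 (23097273 to 23106301) and Os01g0591300 (23112460 to 23120522), both below, were 6159 bases apart, and the 2 other loci in that stretch had 0 reads in all 6 libraries. Os01g0591000 had nodal, S-type and L-type levels of 178, 199 and 46.6 normalised reads under control, and 96.1, 97.2 and 47.5 under salt. Os01g0591300 had 289, 509 and 33.6 under control and 192, 1122 and 91.3 under salt, so the S-type libraries stood highest at the second locus, while nodal and S-type roots were close at the first. On chromosome 3, Os03g0163000 and Os03g0164300, both above, were 53168 bases apart with 9 loci between them, and the 2 of these that had over 50 normalised reads on average were not members.

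One of the 34 loci above had no gene ID. It lay on chromosome 11 (16283216 to 16286072) and had nodal, S-type and L-type levels of 6.48, 21.3 and 116 normalised reads under control, and 55.3, 44.2 and 159.8 under salt. For 11 of the loci above and 14 of those below, the deposited interval was shared with at least 1 other locus, and in 4 and 2 of these cases another locus of the interval had a mean of at least 50. Intervals are therefore not gene lengths, and reads of overlapping loci cannot be told apart where the authors' counting did not use strand, which the sources used here do not give.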

How the data were processed

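Messenger RNA libraries of 3 root types under control and salt, 1 per group, were analysed. Per the submitters' processing notes, Trimmomatic 0.32, TopHat2 2.0.11, Bowtie, and Cufflinks and Cuffdiff (both 2.2.1) were used, with IRGSP-1.0 as the genome build. Deposited by the authors are a signal for each locus, which is a read count divided by the size factor of its library, and FPKM values with p-values and q-values per pair of libraries. Another 18 columns per locus (variances) were not used. Division by the value of 1 read gave whole numbers within 0.01 for 99.90% to 99.98% of values above 0. These recovered reads served for counting intervals (95%), floors (3 reads), TMM and the count tests; intervals cover counting error only, since reads made by PCR are not independent molecules. Levels are the deposited values, the scale of the rule; a pseudocount of 1 applies to folds, which understates changes of low loci. TMM scaling stands as an alternative.

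Salt was tested two-sided with limma-trend (limma 3.58.1, R 4.3.3) on log2(value + 1) with root type as covariate, over loci reaching 10 reads in 2 or more libraries. Alternatives were edgeR 4.0.16, DESeq2 1.42.0, other scalings, pseudocounts and minima. The 828 loci without an ID, at most 0.58% of reads, were kept. Members and lists were chosen with earlier results of these data known; list membership was not checked against an annotation. Of 36773 gene IDs 1 matched the reference table (assembly ASM3414082v1). Named loci were the 2 per direction with the largest fold (mean of at least 100) and the 2 per direction with the largest salt difference in L-type roots (at least 200 in the higher library); others are said to be singled out afterwards. Coordinates are as deposited.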

Additional observations from a re-analysis of the deposited data

Results flagged for a closer look

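In 3 of the 68 loci, salt against control met the rule of size in opposite directions in different root types; with 1 library a group the difference was not tested. Changes are on the log2 scale, in the order nodal, S-type and L-type. Os01g0371500, below both others, differed by -1.65, 1.40 and 0.71. Os07g0645300, also below, differed by 0.47, -1.34 and 1.63. Os11g0154500, above both others, differed by -1.04, 0.47 and 1.41.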

How the results depend on the processing

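Of the loci above both other root types, library totals gave 61, a minimum mean of 200 gave 5 and 4-fold gave 1, in place of 34. Of the loci below, library totals gave 12, a pseudocount of 10 gave 21, a minimum of 200 gave 12 and 4-fold gave 1, in place of 34. TMM scaling, FPKM and, for loci above, a pseudocount of 10 stayed within 1.5 times. Fewer loci at a stricter fold or minimum follow from the construction; for the scaling and pseudocount the cause was not tested. For salt in L-type roots, 4-fold left 1 higher and 2 lower of the loci above and 1 higher and 1 lower of the loci below, and a minimum of 200 left 0 of the 7 loci below that were higher; the other alternatives stayed within 1.5 times. In the fit across root types, DESeq2 called 2 of the loci above and 4 of those below, and leaving out 1 library gave 0 to 1 and 0 to 2. The highest numbers came without the control or the salt S-type library, 2 fits that rest on the same nodal and L-type pairs and are not 2 checks. The fit already compares salt with control within each root type; a replicate block could not be fitted because each group was 1 library and the labels carry no replicate numbers. Loci with few reads, such as those near a mean of 50, are limited by depth.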
